A study of Mus musculus with 14 samples.

Results

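The genes described here are the fibroblast growth factor (FGF) receptors and β-Klotho: *Fgfr1*, *Fgfr2*, *Fgfr3*, *Fgfr4*, *Fgfrl1* and *Klb*. They were picked by symbol, with earlier results of these data known, and are 6 of the 25212 genes listed in the count table. All 6 passed the filter on low counts, which left 14252 genes to test. Liver RNA came from 14 male C57BL/6 mice made obese on a high-fat diet (HFD) and kept on it to the end, with no engineered allele named in the labels. The groups were 5 obese mice without surgery (DIO), 4 mice whose gallbladder had been joined to the ileum and whose common bile duct had been closed (GB-IL), and 5 that had undergone a Roux-en-Y gastric bypass (RYGB). Operated mice were sampled 8 weeks after surgery. No sham-operated liver was among the libraries analysed here, so in comparisons with DIO the diversion of bile or the bypass cannot be told apart from surgery itself. The labels name more than 1 library kit without saying which liver had which. *Fgfr1*, *Fgfr4* and *Klb* were among the genes the study displayed from these same livers, so their values here are not independent of it.

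FGF receptors are tyrosine kinases of the cell surface. Most FGFs bind them together with heparan sulphate, whereas the hormone-like FGF15, FGF21 and FGF23 need a Klotho protein as co-receptor. In hepatocytes, FGFR4 with β-Klotho receives FGF15, a hormone that the ileum releases when it takes up bile acids, and the signal lowers *Cyp7a1*, which encodes the rate-limiting enzyme of bile acid synthesis. FGFR1 with β-Klotho receives FGF21 in other tissues, and in the liver FGFR1 is better known from stellate cells, the fibre-forming cells of the sinusoid wall. FGFRL1 resembles the receptors outside the cell but has no kinase domain.

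The sequences in front of *Fgfr4* and *Klb* are shown because the products of these genes form the hepatic FGF15 receptor, and their windows differ in composition. RefSeq promoter windows (GRCm38.p6, 250 bases before to 50 bases after the start) matched 5 of the 6 genes. Capitals mark matches, on either strand, to any of 4 motifs: the GC box GGGCGG, the nuclear receptor half-site AGGTCA, the E-box CACGTG and the CCAAT box CCAAT. The windows are written 5′ to 3′ on the plus strand, which is the strand of both genes, at chr13:55152568-55152867 and chr5:65348161-65348460.
Fgfr4: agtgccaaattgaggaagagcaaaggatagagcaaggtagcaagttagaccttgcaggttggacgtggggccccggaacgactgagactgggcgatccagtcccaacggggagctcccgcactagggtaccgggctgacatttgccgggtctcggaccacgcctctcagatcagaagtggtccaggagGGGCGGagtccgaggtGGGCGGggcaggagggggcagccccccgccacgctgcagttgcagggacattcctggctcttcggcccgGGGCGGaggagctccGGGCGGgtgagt
Klb: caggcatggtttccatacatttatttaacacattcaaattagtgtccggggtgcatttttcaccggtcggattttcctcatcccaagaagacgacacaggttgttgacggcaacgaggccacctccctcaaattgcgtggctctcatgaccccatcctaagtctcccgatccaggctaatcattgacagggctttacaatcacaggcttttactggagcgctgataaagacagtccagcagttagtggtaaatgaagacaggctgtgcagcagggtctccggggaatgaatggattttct
The *Fgfr4* window held 4 GC boxes and 20 CpG, with a GC content of 65.3%. The *Klb* window held none of the 4 motifs and 10 CpG, with a GC content of 48.3%. Over all 32851 windows of 300 bases, the median GC content was 52.7% with 7 CpG, and 35.7% held a GC box, 16.3% a half-site, 7.15% an E-box and 37.4% a CCAAT box. *Fgfrl1* was like *Fgfr4* in holding 4 GC boxes, and both windows of *Fgfr3* held them too, with 4 and 2. The *Fgfr2* window held a single E-box and no GC box. A match is a description of letters and not a bound site.

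On GRCm38 (GENCODE M21), *Fgfr4* lies on chromosome 13 at 55152640 to 55168759, plus strand. Chromosome 5 carries *Fgfr3* at 33721674 to 33737068, *Klb* at 65348314 to 65384007 and *Fgfrl1* at 108692382 to 108706924, each on the plus strand. *Fgfr1* is on chromosome 8 at 25513654 to 25575718, plus strand, and an antisense gene, *Gm16159*, lies inside it with 0 or 1 count in each liver. *Fgfr2* is on the minus strand of chromosome 7 from 130162451. RefSeq ends it at 130266808 and GENCODE carries transcripts on to 133123350, across other genes. The counts are of reads over the whole gene, so splice forms with different ligand preferences could not be separated.

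The livers held 18223135 to 28656631 counted reads each. On the first principal component, which carried 50% of the variance, the libraries labelled GB-IL 1 and GB-IL 2 lay at 116.9 and 92.9, GB-IL 3 at 17.7 and GB-IL 4 at -31.2, inside the DIO range of -39.6 to -18.7. RYGB livers 1 to 5 lay at -1.89, -20.9, -30.0, -28.8 and 14.1. The library labelled GB-IL 4 thus lay among the DIO livers and beside RYGB 3 and RYGB 4, away from GB-IL 1 and GB-IL 2. Whether its label is right was not tested, so for the 6 genes the values without it are given where it changed a call. The summed level of 8 hepatocyte markers was high throughout, at 86127 to 144414 CPM (counts scaled to a common library size), lowest in GB-IL 3 and GB-IL 1. In GB-IL 1, the 7 skeletal muscle markers summed to 1709 CPM, against 0.74 to 3.4 CPM in the other livers, and the 7 squamous epithelium markers to 415 CPM, against 34.1 CPM in GB-IL 2 and at most 1.1 CPM elsewhere. All markers of both lists were detected in GB-IL 1. At least 1 muscle marker was at 0 counts in 12 of the other 13 livers, and at least 3 squamous markers were at 0 in all 13. These are whole-tissue values, in which fewer cells of a type and less RNA per cell cannot be told apart.

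In the edgeR fit of all livers, *Fgfr1* alone of the 6 genes passed the false discovery rate (FDR), in GB-IL against DIO, where it was higher after GB-IL. Levels are CPM after TMM scaling. The DIO livers 1 to 5 had 4.61, 4.33, 4.27, 7.30 and 5.67 CPM of *Fgfr1*. GB-IL livers 1 to 4 had 38.4, 13.3, 21.8 and 4.21 CPM. RYGB livers 1 to 5 had 10.2, 8.93, 11.2, 12.1 and 15.6 CPM. GB-IL 1, 2 and 3 stood above every DIO liver, and GB-IL 4 was the lowest of all 14. Each RYGB liver was above each DIO liver.

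**Figure D1:**
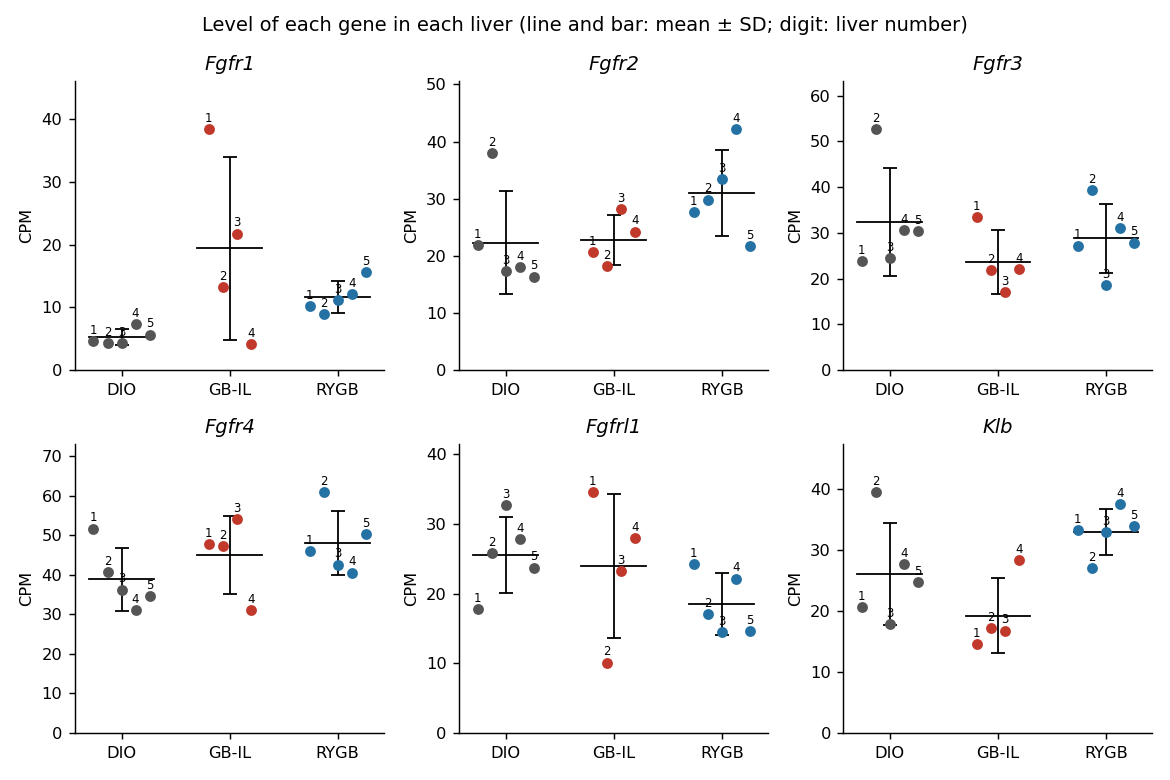
CPM of each of the 6 genes in each liver, with 1 panel per gene, a point and number per liver, and the group mean ± SD. *Fgfr1* ran from 4.21 to 38.4 CPM with GB-IL 1 at the top, and *Klb* in GB-IL 1, 2 and 3 was under the DIO range.

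The group means of *Fgfr1* were 5.24 ± 1.28 CPM in DIO (SD, n = 5), 19.4 ± 14.5 CPM after GB-IL (SD, n = 4) and 11.6 ± 2.53 CPM after RYGB (SD, n = 5). Against DIO, *Fgfr1* rose 3.70-fold after GB-IL, a log2 fold change of 1.89 ± 0.43 (SE; adjusted p = 0.0336, edgeR quasi-likelihood test). Of the 6 genes 1 was called, beside 3.26% of all genes tested, with 3.15% of all genes called as higher. None of the 6 had groups that did not overlap, beside 4.17% of all genes, and 1 had an unadjusted p under 0.05, beside 23.1%. An exact two-sided permutation test of the group means of log2(CPM + 0.5) gave p = 0.0952 (smallest possible 0.0159). In edgeR the call was kept with RLE scaling (adjusted p = 0.0337), with no filter (0.0308), and without GB-IL 3 or any single RYGB liver. DESeq2 (adjusted p = 0.00105) and voom with sample quality weights (0.0391) also called *Fgfr1*, beside 9.07% and 4.13% of all genes. With 0 genes of the whole table passing, the call was lost in edgeR without GB-IL 1 (log2 fold change 1.31, adjusted p = 0.115) and without GB-IL 2 (2.02, 0.0588). It was also lost without DIO 1, 2, 3, 4 or 5 (1.84, 1.83, 1.82, 2.04 and 1.91, with adjusted p of 0.0785, 0.0869, 0.0802, 0.083 and 0.0959), fits in which 0 genes of the whole table passed. In a fit of the GB-IL and DIO livers alone the call was lost too (1.88, adjusted p = 0.114), again with 0 genes of the table passing. Without GB-IL 4 the log2 fold change was 2.22 (adjusted p = 0.000568), in a fit that called 24.6% of all genes. Without GB-IL 1 and 2 together, an alternative chosen after seeing the data, the log2 fold change was 1.28 (adjusted p = 0.263).

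After RYGB, *Fgfr1* was 2.22-fold its DIO level, 1.15 ± 0.41 (SE) on the log2 scale, and did not pass (adjusted p = 0.472). The unadjusted p was 0.013, and the exact permutation test of the 5 against 5 values gave p = 0.00794, the smallest it can give. Of the 6 genes, 1 had groups that did not overlap, beside 3.53% of all genes tested. None of the 6 was called by edgeR, beside 0.0% of all genes, while 1 was at an unadjusted p under 0.05, beside 8.71% of all genes. DESeq2 called 0 of the 6, beside 0.681% of all genes. Voom with sample quality weights called 2, *Fgfr1* (log2 fold change 0.99, adjusted p = 0.023) and *Fgfr2*, beside 11.9% of all genes. In a fit of DIO and RYGB alone, *Fgfr1* passed too (1.16, adjusted p = 0.0375), beside 0.242% of all genes. GB-IL and RYGB share the DIO livers as their control. Compared directly, *Fgfr1* was 1.67-fold higher after GB-IL than after RYGB, with a 95% interval of the log2 difference from -0.16 to 1.63 (adjusted p = 0.304). Without GB-IL 4 that difference was 1.06 and passed (adjusted p = 0.0237), beside 21.5% of all genes.

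Summed markers of other cell types are given beside *Fgfr1*, with no test of a link. The summed level of 11 stellate cell and fibroblast markers was 982, 334, 291 and 366 CPM in GB-IL 1 to 4, 220.5 to 352 CPM in DIO and 308 to 549 CPM after RYGB. In each comparison with DIO, 10 of these 11 markers were higher, and 1 was called after GB-IL, *Des*, which encodes desmin and is also a muscle gene, and 0 after RYGB. GB-IL 4 had more of the stellate list than GB-IL 2 or GB-IL 3 and the least *Fgfr1*. Summed cholangiocyte markers were 340, 291, 235 and 71.2 CPM in GB-IL 1 to 4, against 45.6 to 78.6 CPM in DIO and 77.2 to 92.7 CPM after RYGB, with 4 of 7 tested markers called after GB-IL (*Krt19*, *Krt7*, *Spp1* and *Tspan8*). Neutrophil markers summed to 122, 55.9, 364 and 6.46 CPM in GB-IL 1 to 4, against 5.4 to 10.6 CPM in DIO, and to 110 CPM in RYGB 5, with 5 of 7 called after GB-IL (*Mmp8*, *Retnlg*, *Cxcr2*, *S100a8* and *S100a9*). Kupffer cell and macrophage markers summed to 441, 779, 1700 and 674 CPM in GB-IL 1 to 4, against 338 to 617 CPM in DIO and 332 to 891 CPM after RYGB, with 7 of 7 tested higher after GB-IL and 2 called (*Cd68* and *Marco*). Mesothelial markers summed to 27.1, 2.88, 17.7 and 9.19 CPM in GB-IL 1 to 4, against 1.98 to 8.56 CPM in DIO and 1.06 to 7.94 CPM after RYGB, with 5 of 5 higher after GB-IL and 0 called. Other lists were mixed or lower after GB-IL, with 0 markers called. For sinusoidal endothelium, 5 of 8 tested markers were higher, and for T and B cells 5 of 6 were lower. Intestinal epithelium markers summed to 44.2, 49.5, 41.2 and 224 CPM in GB-IL 1 to 4, against 83.3 to 228 CPM in DIO. The 2 of them that were tested were lower. The part of these lists, and of the muscle and squamous markers of GB-IL 1, in the level of *Fgfr1* was not tested.

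**Figure D2:**
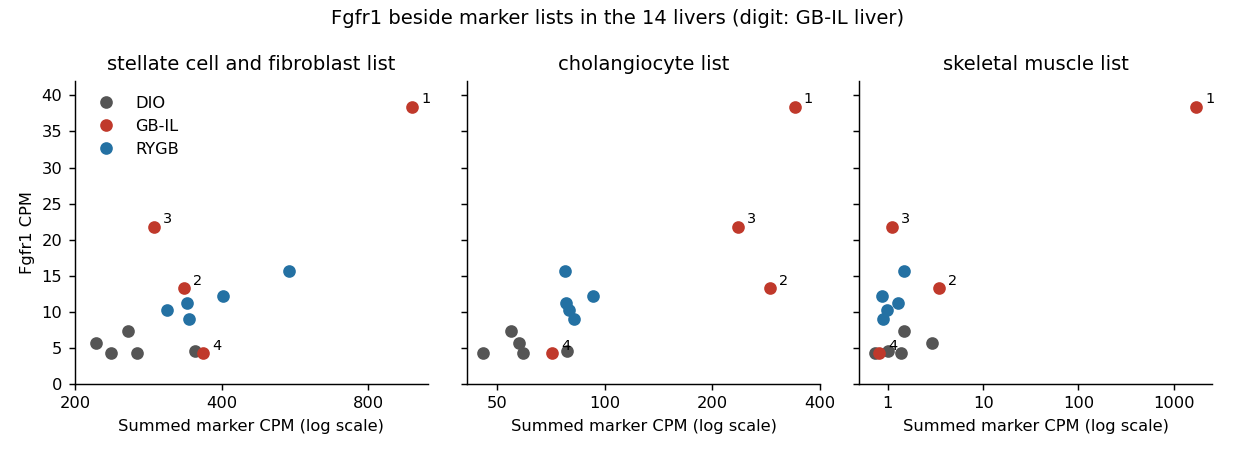
*Fgfr1* (CPM, vertical axis) against the summed CPM of 3 marker lists (log scale), with 1 point per liver and GB-IL livers numbered. GB-IL 1 is at the far right of each panel (982, 340 and 1709 CPM), and GB-IL 4, at 366 CPM of the stellate list, is at the bottom with 4.21 CPM of *Fgfr1*.

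*Klb*, the co-receptor of FGF15 and FGF21, was lower after GB-IL than after RYGB in 3 of 4 livers, but did not pass the FDR in any of the 3 comparisons in the edgeR fit of all livers. DIO livers 1 to 5 had 20.7, 39.6, 17.9, 27.7 and 24.7 CPM of *Klb*. GB-IL livers 1 to 4 had 14.6, 17.2, 16.8 and 28.3 CPM. RYGB livers 1 to 5 had 33.3, 27.0, 33.0, 37.6 and 33.9 CPM. GB-IL 1, 2 and 3 were under every DIO and every RYGB liver, and GB-IL 4 was within both ranges.

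The means of *Klb* were 26.1 ± 8.40 CPM in DIO (SD, n = 5), 19.2 ± 6.17 CPM after GB-IL (SD, n = 4) and 33.0 ± 3.79 CPM after RYGB (SD, n = 5). Between GB-IL and RYGB, the log2 difference was -0.78 ± 0.24 (SE), with an unadjusted p of 0.00558 and an adjusted p of 0.115. No gene of the 6 was called by edgeR in that comparison, beside 0.0% of all genes, and *Klb* alone had an unadjusted p under 0.05, beside 22.1% of all genes. For none of the 6 did GB-IL and RYGB fail to overlap, beside 2.84% of all genes. DESeq2 called *Klb* (log2 difference -0.77, adjusted p = 0.047), as did edgeR without GB-IL 4 (-1.03, 0.0107). Over all genes, these 2 fits called 5.93% and 21.5%. Against DIO, the log2 fold change of *Klb* was -0.44 after GB-IL (95% interval -0.95 to 0.07, adjusted p = 0.272) and 0.34 after RYGB (-0.14 to 0.81, adjusted p = 0.701). Without GB-IL 4, *Klb* passed against DIO too (-0.70, adjusted p = 0.0386), in a fit that called 24.6% of all genes. The hepatocyte markers summed to 98429, 119145, 86127 and 116314 CPM in GB-IL 1 to 4. They summed to 115458 to 144414 CPM in DIO and 113639 to 136635 CPM after RYGB. The part of hepatocyte content in the level of *Klb* was not tested.

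*Fgfr4*, the receptor that pairs with β-Klotho in hepatocytes, varied least of the 6 across livers. The highest liver had 1.97-fold the level of the lowest, against 9.13-fold for *Fgfr1*. DIO livers 1 to 5 had 51.7, 40.7, 36.2, 31.1 and 34.6 CPM of *Fgfr4*, GB-IL livers 1 to 4 had 47.7, 47.2, 53.9 and 31.0 CPM, and RYGB livers 1 to 5 had 46.0, 60.9, 42.5, 40.5 and 50.2 CPM. The groups overlapped in each comparison, and GB-IL 4 was again the lowest of all 14. Against DIO, the log2 fold change of *Fgfr4* was 0.21 after GB-IL (95% interval -0.21 to 0.63, adjusted p = 0.502) and 0.31 after RYGB (-0.09 to 0.70, adjusted p = 0.664). GB-IL and RYGB differed by -0.10 (-0.51 to 0.32, adjusted p = 0.779).

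The other 3 genes had no call in any comparison by the edgeR fit. *Fgfr2*, the receptor best known from epithelia, ran from 16.4 to 38.0 CPM in DIO, 18.2 to 28.2 CPM after GB-IL and 21.7 to 42.2 CPM after RYGB. Its log2 fold change was 0.03 after GB-IL (95% interval -0.52 to 0.58) and 0.47 after RYGB (-0.05 to 0.99, adjusted p = 0.607), and voom with sample quality weights, which called 11.9% of all genes, called the latter (0.83, adjusted p = 0.0125). *Fgfr3* ran from 23.9 to 52.7 CPM in DIO, 17.0 to 33.5 CPM after GB-IL and 18.6 to 39.4 CPM after RYGB. GB-IL 2, 3 and 4 were under every DIO liver in *Fgfr3*, with a log2 fold change of -0.45 (95% interval -1.03 to 0.12, adjusted p = 0.311). The DIO range of both genes ended at DIO 2, which had 38.0 CPM of *Fgfr2* and 52.7 CPM of *Fgfr3*, far above the other DIO livers at 16.4 to 21.8 and 23.9 to 30.6 CPM. *Fgfrl1* ran from 17.8 to 32.7 CPM in DIO, 10.1 to 34.6 CPM after GB-IL and 14.5 to 24.3 CPM after RYGB. After RYGB, 3 of 5 livers were under every DIO liver in *Fgfrl1*, with a log2 fold change of -0.47 (95% interval -1.05 to 0.12, adjusted p = 0.661).

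**Figure D3:**
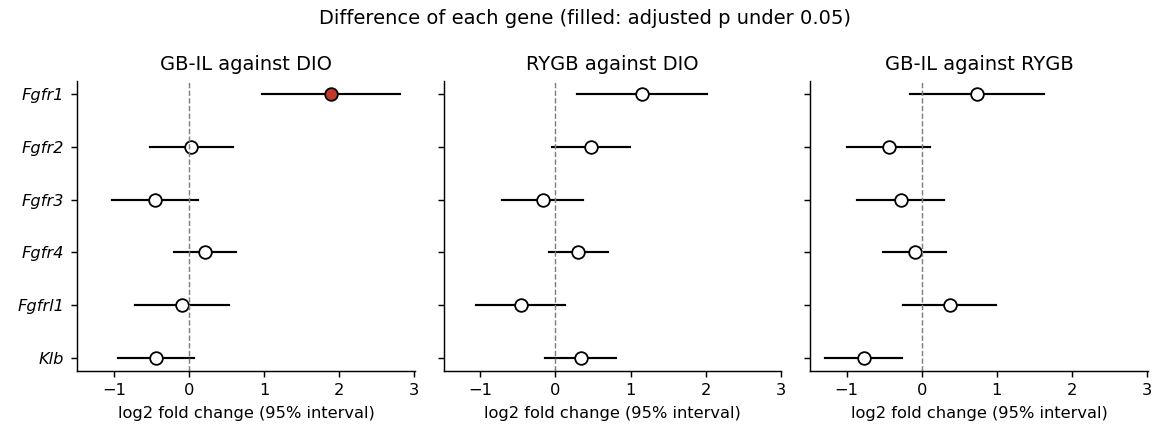
Log2 fold change of each gene (point) with its 95% interval (line) in the 3 comparisons, filled where the adjusted p was under 0.05. *Fgfr1* in GB-IL against DIO, at 1.89, is the filled point, and the interval of *Klb* in GB-IL against RYGB runs from -1.29 to -0.26.

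The median log2 fold change over the 6 genes was -0.03 after GB-IL and 0.32 after RYGB, against 0.04 and 0.01 over all genes tested. Against DIO, 3 of the 6 were higher and 3 lower after GB-IL, and 4 were higher and 2 lower after RYGB. Between GB-IL and RYGB the median was -0.19, against 0.03 over all genes, with 2 higher and 4 lower after GB-IL.

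Per length, *Fgfr4* had the highest mean level and *Fgfr1* the lowest in each group. Levels per length are FPKM (CPM divided by the length in kilobases), computed here from the counts over the merged exons of each gene. In DIO, the mean was 11.0 ± 2.24 FPKM for *Fgfr4*, 9.20 ± 1.97 for *Fgfrl1*, 5.74 ± 1.85 for *Klb*, 4.53 ± 1.64 for *Fgfr3*, 2.16 ± 0.87 for *Fgfr2* and 0.53 ± 0.13 for *Fgfr1* (SD, n = 5). Neighbours in that order overlapped in range except *Fgfr2* and *Fgfr1*, and *Fgfr4* was above *Fgfrl1* in 3 of 5 livers. After GB-IL the order of means was the same, with each pair of neighbours overlapping, and *Fgfr1* at 1.97 ± 1.47 FPKM lay beside *Fgfr2* at 2.21 ± 0.42 FPKM (SD, n = 4). After RYGB, *Klb* at 7.24 ± 0.83 FPKM came second to *Fgfr4* at 13.6 ± 2.28 FPKM, and those 2 did not overlap, while *Klb* was above *Fgfrl1* at 6.67 ± 1.60 FPKM in 3 of 5 livers (SD, n = 5).

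With the length of the longest annotated transcript in place of the merged exons, *Fgfr4* stayed highest and *Fgfr1* lowest, and the order between them changed. In DIO, *Fgfr2* then stood at 5.04 FPKM, *Fgfr3* at 7.63 FPKM and *Klb* at 7.38 FPKM. *Fgfr4* made up 60.6 ± 8.03% of the summed FPKM of the 4 kinase receptors in DIO (SD, n = 5), 62.9 ± 5.99% after GB-IL (SD, n = 4) and 62.2 ± 4.52% after RYGB (SD, n = 5). *Fgfr1* made up 3.05 ± 1.14%, 8.94 ± 5.59% and 5.51 ± 1.42%, and *Fgfr3* 24.7 ± 5.99%, 16.7 ± 4.71% and 18.3 ± 2.86%, in the same order. By longest transcript, the *Fgfr4* shares were 46.6%, 48.3% and 47.3%.

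**Figure D4:**
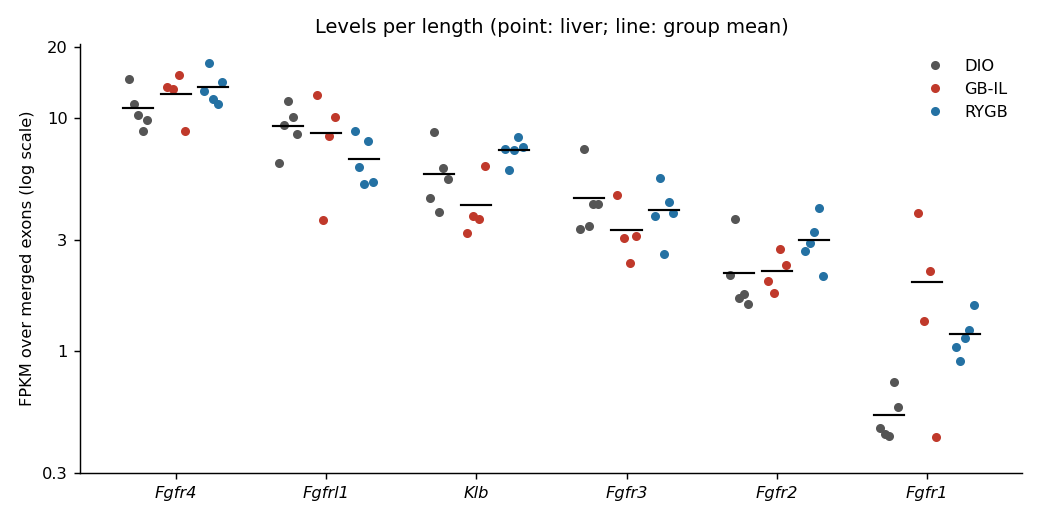
FPKM over merged exons (log scale) of the 6 genes, ordered by their DIO mean, with a point per liver and a line at each group mean. *Fgfr4* is highest at 11.0, 12.7 and 13.6 FPKM in DIO, GB-IL and RYGB, and *Fgfr1* lowest at 0.53, 1.97 and 1.18 FPKM.

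The ratio of co-receptor to receptor was lowest in the GB-IL livers 1 to 3. The log2 ratio of *Klb* to *Fgfr4*, in FPKM over merged exons, was -0.97 ± 0.55 in DIO (SD, n = 5), -1.60 ± 0.75 after GB-IL (SD, n = 4) and -0.90 ± 0.39 after RYGB (SD, n = 5). It ran from -2.07 to -0.49 after GB-IL and from -1.68 to -0.40 in DIO, so these groups overlapped.

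Of the 22 *Fgf* genes looked for, 17 were in the table, and 3 passed the filter: *Fgf1*, *Fgf11* and *Fgf21*. The gene of the ileal hormone itself, *Fgf15*, was not found under that symbol and so was not analysed. None of the 3 was called in any comparison by edgeR or DESeq2, with 1, *Fgf1*, at an unadjusted p under 0.05 in GB-IL against DIO. Over all genes, 23.1% had such a p in that comparison. *Fgf1*, which binds all of the receptors, had 148 ± 51.9 CPM in DIO (SD, n = 5), 66.8 ± 49.3 CPM after GB-IL (SD, n = 4) and 103 ± 30.1 CPM after RYGB (SD, n = 5). GB-IL 1 and 2, at 17.9 and 30.7 CPM, were under every other liver, and GB-IL 3 and 4 stood at 109 CPM each. The log2 fold change of *Fgf1* after GB-IL was -1.15 ± 0.47 (SE; adjusted p = 0.165). Without GB-IL 4 it passed (-1.50, 0.0421), beside 24.6% of all genes.

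*Fgf21*, which encodes the fasting hormone that acts through β-Klotho, had 9.94, 1.77, 2.34, 2.38 and 3.22 CPM in DIO 1 to 5. GB-IL 1 to 4 had 0.21, 0.62, 0.89 and 5.50 CPM, and RYGB 1 to 5 had 6.18, 5.03, 4.72, 3.64 and 6.65 CPM. GB-IL 1, 2 and 3 were under every other liver, the same 3 that were lowest in *Klb*, and GB-IL 4 was within the RYGB range. The log2 fold change of *Fgf21* was -1.09 ± 0.71 after GB-IL (SE; adjusted p = 0.349). Without GB-IL 4 it was -2.75 and passed (adjusted p = 0.00764), beside 24.6% of all genes. *Fgf23*, a bone hormone that signals with α-Klotho and was picked out here after its values were seen, had 0 or 1 count in 12 livers, 10 counts in RYGB 1 and 1426 counts (49.4 CPM) in RYGB 5. The other untested *Fgf* genes had at most 12 counts in any liver.

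Of the klotho relatives and heparan sulphate proteoglycans, which help FGFs bind their receptors, 9 of 13 were tested, all of them proteoglycans. The klotho relatives *Kl* and *Lctl* had at most 4 and 7 counts in any liver and were not tested. In GB-IL against DIO, edgeR called 1 of the 9, beside 3.26% of all genes. *Gpc3*, a glypican on the cell surface that is low in healthy adult liver, had 1.15, 2.17, 0.36, 1.75 and 1.01 CPM in DIO 1 to 5 and 21.7, 17.7, 3.99 and 1.96 CPM in GB-IL 1 to 4. RYGB livers had 0.42 to 1.28 CPM. GB-IL 1, 2 and 3 were above every DIO liver and GB-IL 4 was among them. The rise of *Gpc3* after GB-IL was 3.13 ± 0.64 on the log2 scale (SE; adjusted p = 0.0278). Over the fits that each omitted 1 liver it ran from 2.61 to 3.47, and the call, not the difference, was lost without GB-IL 1, GB-IL 2 or any DIO liver (adjusted p up to 0.0942). The log2 fold change of the glypican *Gpc1* was -1.05 (adjusted p = 0.138). After RYGB, 0 of the 9 were called by edgeR or DESeq2 and 3 had an unadjusted p under 0.05 (*Gpc1*, *Gpc6* and *Hspg2*), beside 8.71% of all genes.

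Downstream of the receptors, none of the 20 adaptors and kinases tested was called after GB-IL or RYGB by edgeR or DESeq2, with 1 (*Plcg1*) and 0 at an unadjusted p under 0.05. Over all genes, 23.1% had such a p after GB-IL and 8.71% after RYGB. After GB-IL, 11 were higher and 9 lower, with a median log2 fold change of 0.04. *Plcg1*, a phospholipase that binds activated receptors, had -0.43 (adjusted p = 0.184) and *Shc1*, an adaptor to the Ras pathway, 0.30 (adjusted p = 0.255). Of 12 feedback inhibitors tested, 0 were called in either comparison by the same 2 tools, with 1 at an unadjusted p under 0.05 in each (*Il17rd* after GB-IL and *Dusp6* after RYGB). After GB-IL, 7 were higher and 5 lower, and after RYGB 10 were higher and 2 lower. *Il17rd*, which restrains FGF signals, had a log2 fold change of 0.98 after GB-IL (adjusted p = 0.118) and *Dusp5*, an ERK phosphatase, 1.07 (adjusted p = 0.251).

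All 7 FGF-induced transcription factors tested had higher means after GB-IL, with a median log2 fold change of 0.78, and 0 of them passed in edgeR, with 3 at an unadjusted p under 0.05, beside 23.1% of all genes. DESeq2 called 3 of them, *Fos*, *Jun* and *Myc*, beside 9.07% of all genes. *Jun*, part of the AP-1 factor, had 87.4, 35.5, 12.5 and 20.8 CPM in GB-IL 1 to 4 against 5.71 to 15.5 CPM in DIO. On the log2 scale the difference was 1.87 for *Jun* (adjusted p = 0.0646) and 1.63 for *Fos*, its partner (adjusted p = 0.0999). Both passed without GB-IL 4 (adjusted p = 0.0162 and 0.0244), beside 24.6% of all genes. *Jun* also passed without GB-IL 3 or RYGB 5, beside 3.99% and 3.41%. After RYGB, 5 were higher and 2 lower, with 0 called by edgeR or DESeq2 and 1, *Egr1*, at an unadjusted p under 0.05, beside 8.71% of all genes. These genes respond to many signals besides FGFs.

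The list of 10 genes around bile acid synthesis was drawn up for this description and is not a set of FGFR4 and β-Klotho targets. Of the 10, 9 were tested, and all 9 had lower means after GB-IL, with a median log2 fold change of -0.46. None was called by edgeR or DESeq2, and 2, *Nr1h4* and *Cyp7b1*, had an unadjusted p under 0.05, beside 23.1% of all genes. The list median ran from -0.83 without GB-IL 4 to -0.28 without GB-IL 1, and *Nr0b2* (up to 0.19, without DIO 1) and *Hhex* (up to 0.083, without DIO 2) turned positive in single fits. *Cyp7a1* had 56.9 to 231 CPM in DIO, 2.84, 15.6, 221 and 123 CPM in GB-IL 1 to 4 and 39.5 to 432 CPM after RYGB. *Cyp7a1* in GB-IL 1 and 2 was thus under every other liver, and in GB-IL 3 near the top of the DIO range. Its log2 fold change after GB-IL was -0.65 ± 0.89 (SE; adjusted p = 0.658), and ran from -1.59 without GB-IL 3 to -0.26 without GB-IL 1. *Cyp7b1*, an oxysterol hydroxylase of the alternative pathway, had -1.33 (adjusted p = 0.191), *Nr1h4*, the bile acid receptor FXR, -0.75 (adjusted p = 0.21), and *Cyp8b1*, the 12α-hydroxylase that makes cholic acid, -0.68 (adjusted p = 0.493; -1.31 without GB-IL 4 and -0.36 without GB-IL 3). The repressor *Nr0b2* (SHP) had -0.31 (adjusted p = 0.792), *Nr5a2*, a nuclear receptor that drives *Cyp7a1*, -0.46 (0.355), *Cyp27a1*, which opens the alternative pathway, -0.34 (0.394), *Hhex*, a homeobox factor, -0.28 (0.631) and *Hnf4a*, a hepatocyte master regulator, -0.10 (0.782). After RYGB, 5 were higher and 4 lower, 0 were called by edgeR or DESeq2 and 0 had an unadjusted p under 0.05, beside 8.71% of all genes. *Fgfbp1*, which encodes a carrier protein that binds FGFs, was too low to test, with 13 and 12 counts in GB-IL 1 and 2 and 0 or 1 in the other livers.

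**Figure D5:**
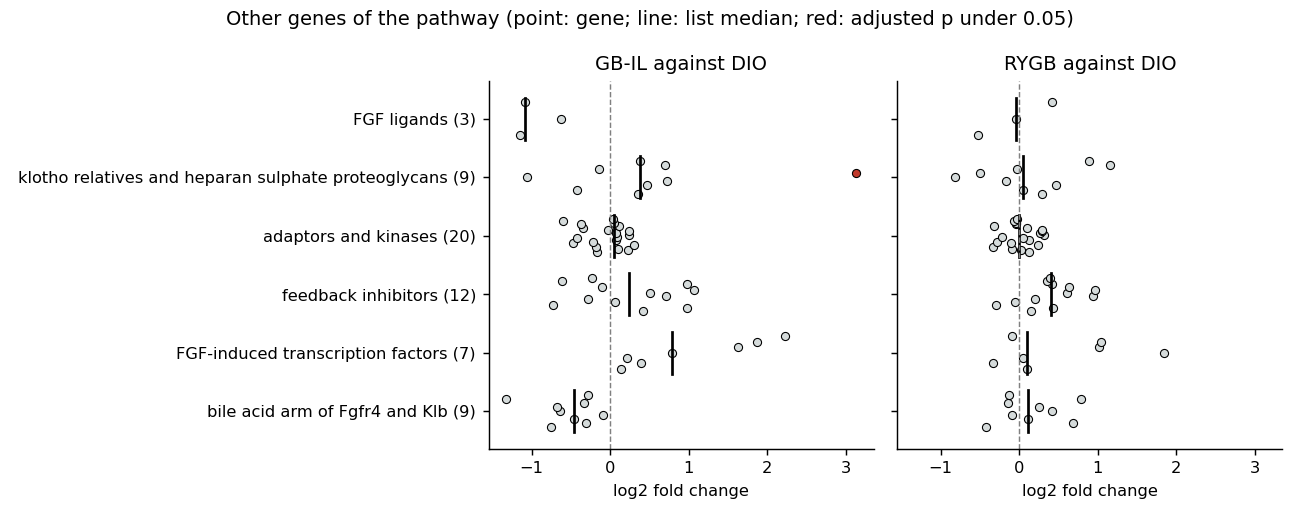
Log2 fold change of the tested genes of 6 pathway lists in GB-IL against DIO (left) and RYGB against DIO (right), with a point per gene and a line at each list median. The red point is *Gpc3*, at 3.13, and all 9 points of the bile acid list are left of 0 after GB-IL (median -0.46).

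The genes whose pattern over the 14 livers was most like that of each member were found by the Pearson correlation r of log2(CPM + 0.5) over 12695 genes with a mean of at least 1 CPM. These livers include GB-IL 1 and 2, which share much of their deviation from the rest, and no test is attached. For *Fgfr1* the nearest were *Ppp3cc* (r = 0.94, Spearman's rho = 0.97), *Kcnt2* (0.94, 0.92) and *Arl2bp* (0.93, 0.94), and without GB-IL 1 and 3 their r was 0.93, 0.93 and 0.89. For *Klb* they were *Dip2c* (0.91, 0.96), *mt-Nd5* (0.89, 0.89) and *Wdfy2* (0.89, 0.87). *Fgfr4* was nearest to *Nfasc* (0.93, 0.86), *Zfp251* (0.84, 0.85) and *Dnajc12* (0.84, 0.82). *Fgfr2* was nearest to *Katnal1* (0.94, 0.89), *Diap2* (0.88, 0.85) and *Dcaf7* (0.88, 0.85).

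For *Fgfrl1*, *5031439G07Rik* (0.92, 0.93), *Fmod* (0.90, 0.90) and *Tdrp* (0.89, 0.89) came nearest. *Fgfr3* had weaker neighbours, *Plekha7* (0.80, 0.81), *Rev1* (0.79, 0.78) and *Pank4* (0.78, 0.78). After group means were subtracted, the nearest were *Myd88* for *Fgfr1* (r = 0.94 within groups, but 0.70 over all livers and 0.12 without GB-IL 1 and 3), *Katnal1* for *Fgfr2* (0.91), *Map2k7* for *Fgfr3* (0.87), *Nfasc* for *Fgfr4* (0.94), *N6amt1* for *Fgfrl1* (0.95) and *1700001L05Rik* for *Klb* (0.87). Among the 6 genes themselves, r was 0.61 for *Fgfr2* with *Klb*, 0.51 for *Fgfr1* with *Fgfr4* and -0.47 for *Fgfr4* with *Fgfrl1*. *Fgfr4* and *Klb*, the pair of the hepatic FGF15 receptor whose sequences are given above, had r = -0.22.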

How the data were processed

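RNA of 14 mouse livers was measured, 1 library per liver. The values the authors deposited are whole-number counts per gene, without normalization. The authors' notes and methods name amplification of the RNA, Illumina sequencing, alignment to mm10 with TopHat2 and counting with HTSeq. For tool versions, annotation and strandedness, nothing was given in the sources consulted, so antisense overlaps could not be separated.

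Groups came from the sample titles. Genes were kept by filterByExpr and scaled by TMM in edgeR 4.0.16 (R 4.3.3), and a quasi-likelihood model with 1 mean per group was fitted to all livers, with Benjamini-Hochberg adjustment over 14252 genes at an FDR of 0.05. Alternatives used limma 3.58.1 (voom with sample quality weights), DESeq2 1.42.0, RLE scaling, no filter, the 2 compared groups only, a replicate block, and each liver left out. Tests were tried on simulated counts. FPKM were computed from the counts with GENCODE M21 lengths. Group means of log2(CPM + 0.5) of the 6 genes were also compared by exact permutation tests. The count depth per liver, 18223135 to 28656631, sets the precision. Named were the 6 genes, called genes of the 6 pathway lists, the 2 of smallest p per list in GB-IL against DIO, and the bile acid list. Other names were added after their values were seen. The members and lists were chosen with earlier results of these data known. P-values weigh group differences against the spread between these livers.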

Additional observations from a re-analysis of the deposited data

Results flagged for a closer look

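In 77 groups of livers, over 27 genes, 8 held a liver that stood apart from the others by Dixon's criterion. The nominal rate of the criterion is about 1 in 20 groups. It cannot be set against this count, because all groups reuse the same livers and some genes, such as *Fgf23*, were named after their values were seen. DIO 2 stood apart in both *Fgfr2* (38.0 CPM, others 16.4 to 21.8) and *Fgfr3* (52.7 CPM, others 23.9 to 30.6). Without that liver the log2 fold change of *Fgfr3* after RYGB was 0.08 in place of -0.17. *Fgf21* had a high liver in DIO (DIO 1, 9.94 CPM, others 1.77 to 3.22) and after GB-IL (GB-IL 4, 5.50 CPM, others 0.21 to 0.89). *Dusp5* was low in DIO 3 (0.31 CPM, others 0.87 to 1.03) and high in RYGB 5 (4.05 CPM, others 0.71 to 1.09). RYGB 5 was also apart in *Jun* (49.8 CPM, others 12.4 to 17.2) and *Fgf23* (49.4 CPM, others 0.0 to 0.55).

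For *Gpc3*, each GB-IL liver was above the DIO mean and each RYGB liver below it. In the direct comparison of GB-IL with RYGB, the log2 difference was 3.63 with an adjusted p of 0.0552, so the difference between the operations did not pass the FDR.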

How the results depend on the processing

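Over 378 recomputed values for the 6 genes (21 alternatives, 3 comparisons), 350 kept their direction and side of the threshold, 10 lost a call, 7 gained one and 11 changed sign. Of the 6 genes, 0 were called in GB-IL against DIO when only those livers were fitted (*Fgfr1* 1.88, adjusted p = 0.114), and 0 without GB-IL 1 and 2 (1.28, 0.263). In RYGB against DIO, 2 were called by voom with sample quality weights (*Fgfr1* 0.99, *Fgfr2* 0.83) and 1 in the 2 groups alone (*Fgfr1* 1.16), where 1690 of 14252 and 33 of 13627 genes passed. In GB-IL against RYGB, DESeq2 called 1 (*Klb* -0.77) and 845 of all genes, and voom gave *Fgfr4* 0.0101 in place of -0.10. Livers of different groups share only a number: deviations of same-numbered livers correlated at -0.41 to 0.40 (median -0.02, 13 pairs). With the replicate block, 0 of the 6 were called in GB-IL against DIO (*Fgfr1* 1.80, adjusted p = 0.111), *Fgfr2* went to -0.046, and 1 gene of the whole table passed.

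With each liver left out in turn, 0 to 2 of the 6 were called in GB-IL against DIO and 0 to 2 in GB-IL against RYGB. In GB-IL against DIO the log2 fold change ran from 1.31 to 2.22 for *Fgfr1*, -0.084 to 0.30 for *Fgfr2*, -0.33 to 0.15 for *Fgfrl1* and -0.70 to -0.25 for *Klb*. In RYGB against DIO it ran from -0.30 to 0.080 for *Fgfr3*. In GB-IL against RYGB it ran from 0.15 to 1.06 for *Fgfr1*, -0.20 to 0.039 for *Fgfr4* and -1.03 to -0.67 for *Klb*. The calls gained there, *Fgfr1* and *Klb*, came without GB-IL 4. The cause of these changes was not tested. Over all genes, calls in GB-IL against DIO numbered 465, 3572 without GB-IL 4, 1292 by DESeq2 and 0 in the 2 groups alone. Lengths by longest transcript moved 10 of 18 group means of FPKM by more than 1 SD. With 4 or 5 livers a group, intervals of the log2 fold change were wide, and 14 of the 17 *Fgf* genes were not tested, 13 of them with at most 12 counts in any liver and *Fgf23* with its counts in RYGB 5.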
